A study of Mus musculus with 10 samples.

Results

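The lysosome genes described here are 42 genes for the acid hydrolases of the lysosome, the proteins of its limiting membrane, the proton pump that acidifies it and the transcription factors that control them. They were chosen by symbol from a list, with earlier results of these data known. Of the 55359 gene identifiers in the count files 42 matched. Their messenger RNA was counted in bulk RNA-seq of F4/80+ macrophages sorted from Braf-mutant melanomas of male mice. The tumours were labelled resistant or rebound, and both groups received Braf and Mek inhibitors every day up to collection. In the control group, 5 libraries, the mice were Ccr2RFP/+. In the Ccr2 knockout group, 5 libraries, they were Ccr2RFP/RFP. Both groups carry at least 1 RFP allele, and no untreated or drug-sensitive tumour is among the samples. Age and tumour line are not in the labels. Nor do they state whether each library is a different mouse, and p-values therefore cover only library-to-library spread, which may be technical.

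Lysosomes are acidic compartments in which macrophages break down engulfed cells, bacteria, lipoproteins and matrix. Proteases called cathepsins, glycosidases and lipid hydrolases work inside them at the low pH set by the vacuolar ATPase (V-ATPase), a rotary proton pump with a cytosolic V1 part and a membrane V0 part. The heavily glycosylated membrane proteins Lamp1, Lamp2 and, in macrophages, Cd68 line the inner face of the membrane. The transcription factors Tfeb, Tfe3 and Mitf bind sites with the core letters CACGTG near the starts of many of these genes. Ccr2 is the chemokine receptor that lets inflammatory monocytes leave the bone marrow.

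The libraries held between 34639808 and 43360206 counts in genes. Ccr2 stood between 59.0 and 177 CPM (counts scaled to library size) in controls and between 3.23 and 6.28 CPM in knockouts, so each library matched its label (edgeR log2 fold change -4.66, adjusted p = 0.000139). The 10 macrophage markers checked, among them Adgre1, the gene of F4/80, summed to 22205 to 23522 CPM in controls and 20199 to 28793 CPM in knockout libraries. Control libraries 1 and 2, and 3 and 4, were closer to each other (median chi-square per gene 2.75 and 2.66) than any other libraries, the next value being 5.71. That next value joined control library 3 and knockout library 2, across the genotypes. Control library 5 was the farthest from the other controls over all genes tested (median chi-square 9.99 to 13.2). It had the highest level among controls for 34 of the 42 members. Among knockout libraries, library 4 was highest for 26 members and library 1 was lowest for 20. The same counts were not taken over all genes, and whether they are particular to the members was not tested.

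The lysosome genes were abundant and leaned upward in Ccr2 knockout macrophages, but 1 of 42 passed the test. All 42 passed the filter on low counts. Only Cd68 rose past an adjusted p of 0.05 over all genes tested, and 0 fell (edgeR quasi-likelihood test). Over all 14374 genes tested, 1.41% passed in either direction, 0.87% higher and 0.543% lower. At an unadjusted p under 0.05, 11 of the 42, or 26.2%, were called, all 11 of them higher and 0 lower, beside 15.3% of all genes. DESeq2 called 3 members higher and 0 lower, beside 2.35% and 2.2% of the 17558 genes to which it gave an adjusted p. Weighted limma-voom, which weights each library by its quality, called 6 higher and 0 lower, beside 1.86% and 1.25% of all genes, and without those weights limma-voom called Cd68 alone. The log2 fold change was positive for 28 of 42 members, with a median of 0.11, beside 49.5% of all genes and a median of -0.00335. The libraries of the genotypes did not overlap for Cd68 and Grn, 2 of 42 or 4.76%, which is near the 4.7% of all genes (2.69% higher and 2.02% lower). Since genes of a shared organelle and libraries that resemble each other are not independent, these counts are a description of the list. The shares beside them are over all genes tested, not over genes of similar abundance.

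**Figure D1:**
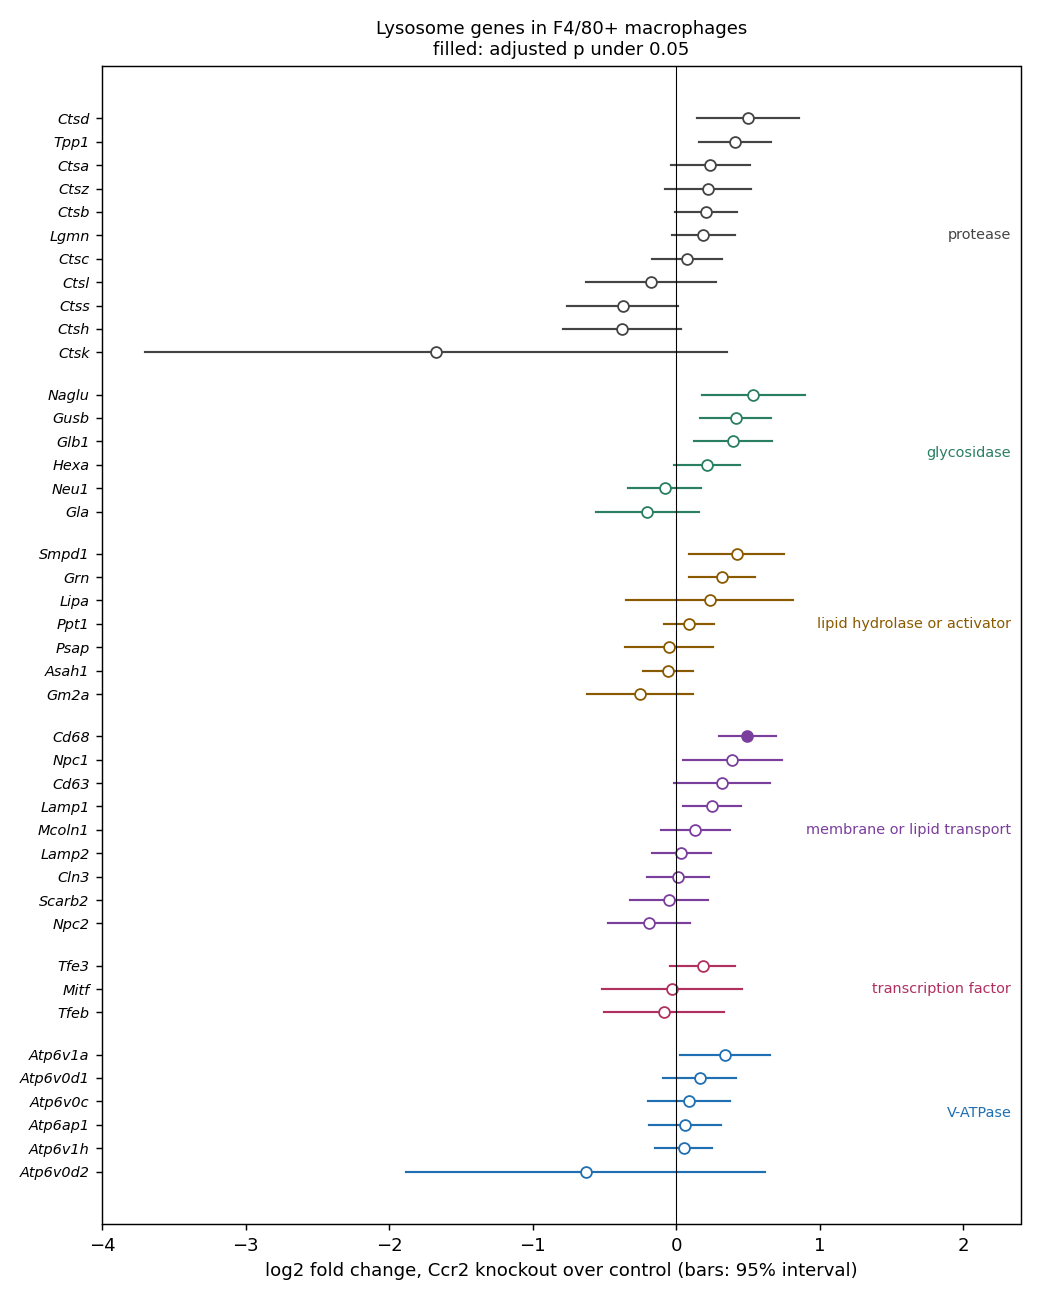
Log2 fold change of each of the 42 lysosome genes, Ccr2 knockout over control, by role (circles, with bars for the 95% interval; 5 libraries per genotype). Only Cd68, at 0.49, is filled for an adjusted p under 0.05, and the widest bar is that of Ctsk.

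Together the 42 genes took between 4.99% and 5.59% of all gene counts in control libraries (5.33% ± 0.245, SD, n = 5) and between 5.25% and 6.56% in knockout libraries (5.77% ± 0.526, n = 5). The groups overlapped, since 2 knockouts, libraries 1 and 3, were inside the span of the controls, and knockout library 4 was highest. Per kilobase of exon, the highest control mean was that of Ctss at 4929.7 CPM per kilobase, followed by Psap at 3012, Lgmn at 2115, Ctsb at 1375, Ctsz at 1165 and Grn at 1085. The lowest were Mcoln1 at 7.43, Mitf at 3.17 and Atp6v0d2 at 1.14 CPM per kilobase. In knockout libraries Ctss and Psap, at 3804 and 2909 CPM per kilobase, were again first.

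The CACGTG letters were looked for in RefSeq promoter windows of build GRCm38.p6, each from 250 bases before to 50 bases after a gene start. Of the 42 members 36 had a window, and 12 of the 36 (33.3%) held CACGTG, which reads the same on both strands, beside 8.09% of all 27025 genes with a window. Counted by window of this length, it was 25.5% of the members' 47 windows and 7.15% of all 32851. The longer GTCACGTG, searched on both strands and containing CACGTG, was in 10 of 36 members (27.8%) and 2.55% of all genes.  The stretches below are shown because they hold the site in members of 3 roles, and in Ctsf, a cathepsin gene outside the 42 that rose. Capitals mark CACGTG, each is written 5′ to 3′ on the strand of its gene, and each ends before the gene start. They lie at chr7:142387900-142387945 (minus strand) for Ctsd, chr11:101070001-101070046 (plus) for Naglu, chr9:114401010-114401055 (plus) for Glb1, chr8:13159080-13159160 (plus) for Lamp1, chr8:3500428-3500499 (plus) for Mcoln1 and chr19:4855066-4855111 (plus) for Ctsf.
Ctsd: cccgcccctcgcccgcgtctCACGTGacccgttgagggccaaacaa
Naglu: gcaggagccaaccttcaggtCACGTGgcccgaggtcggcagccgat
Glb1: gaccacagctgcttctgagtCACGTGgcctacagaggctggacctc
Lamp1: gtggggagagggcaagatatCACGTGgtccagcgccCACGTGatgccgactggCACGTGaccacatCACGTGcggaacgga
Mcoln1: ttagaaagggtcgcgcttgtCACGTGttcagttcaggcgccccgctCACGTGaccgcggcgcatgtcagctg
Ctsf: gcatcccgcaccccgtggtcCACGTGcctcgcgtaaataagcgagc
Lamp1 carries 4 copies in the stretch shown and Mcoln1 carries 2. Ctsd holds another, farther from its start, that is not shown. The genes shown all had positive log2 fold changes. Gla, with 2 copies and a log2 fold change of -0.20, and Ctsl, at -0.18, also hold the site and are not shown. For Hgsnat, outside the 42, which also rose, the search returned no stretch, which a missing window would give too. The 12 members with the letters had a median log2 fold change of 0.21, from -0.20 to 0.54, and 10 were positive. The 24 members with a window and no match had a median of 0.08, and 15 were positive. Cd68, Gusb, Tpp1 and Grn were among those 24. Ctsb, Ctsh, Asah1, Npc1, Atp6v0d2 and Atp6v1h had no window.

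Among membrane and lipid-transport proteins, Cd68 was the member that rose. Cd68 (ENSMUSG00000018774) is a mucin-like glycoprotein of macrophage endosomes and lysosomes. It stood at 801, 794, 817, 822 and 916 CPM in control libraries 1 to 5, and at 1204, 1094, 1167, 1341 and 1041 CPM in knockout libraries 1 to 5. The lowest knockout library was above the highest control, and control library 5 stood above the other controls. The means were 829.9 ± 49.4 and 1169 ± 115 CPM (SD, n = 5 each). The log2 fold change was 0.49 ± 0.09 (SE), its 95% interval ran from 0.30 to 0.69, and the edgeR adjusted p was 0.0260. The threshold was missed without control library 1, 2, 3 or 4 (edgeR adjusted p = 0.0757, 0.0832, 0.0668 and 0.0734) and with the close control pairs summed (0.240). In bulk RNA a change in the share of cells and a change in RNA per cell cannot be told apart. The resident macrophage markers summed to 3434 to 6357 CPM in controls and 5475 to 8404 CPM in knockout libraries, and 5 of these 10 genes rose. Of 10 classical monocyte markers 6 fell, Ccr2 itself among them, with a list median log2 fold change of -3.61. Chil3 stood at -5.74, Plac8 and Ly6c2 at -3.97 each, while Fn1, which made up most of the summed CPM of that list, was at 0.15 (edgeR adjusted p = 0.869). The part of either marker list in the Cd68 difference, and in the other members, was not tested.

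The other 8 membrane and lipid-transport genes did not pass (edgeR), with log2 fold changes from -0.19 to 0.39. Lamp1, the most abundant lysosomal membrane glycoprotein gene of the list by CPM, stood at 1648 to 2132 CPM in controls and at 2019.7 to 2371 CPM in knockout libraries. Only control library 5 reached into the knockout range, and the log2 fold change was 0.25 (edgeR adjusted p = 0.232). Npc1 exports cholesterol from the lysosome. It was at 220.3, 209, 271, 253 and 347 CPM in controls and 356, 277, 323, 428 and 324 CPM in knockout libraries, with a log2 fold change of 0.39 (edgeR adjusted p = 0.266). Control library 5 again lay among the knockout libraries. Its partner Npc2, which hands cholesterol to Npc1, had a log2 fold change of -0.19 and was low in 1 library, knockout library 1, at 946 CPM against 1385 to 1538 in the other knockouts and 1501 to 1711 in controls. The tetraspanin gene Cd63 had a log2 fold change of 0.32 and Mcoln1, a calcium channel of the lysosomal membrane, 0.13. For Lamp2, Cln3 and Scarb2 the values were 0.04, 0.01 and -0.05, with 95% intervals from -0.17 to 0.24, from -0.20 to 0.23 and from -0.32 to 0.22.

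**Figure D2:**
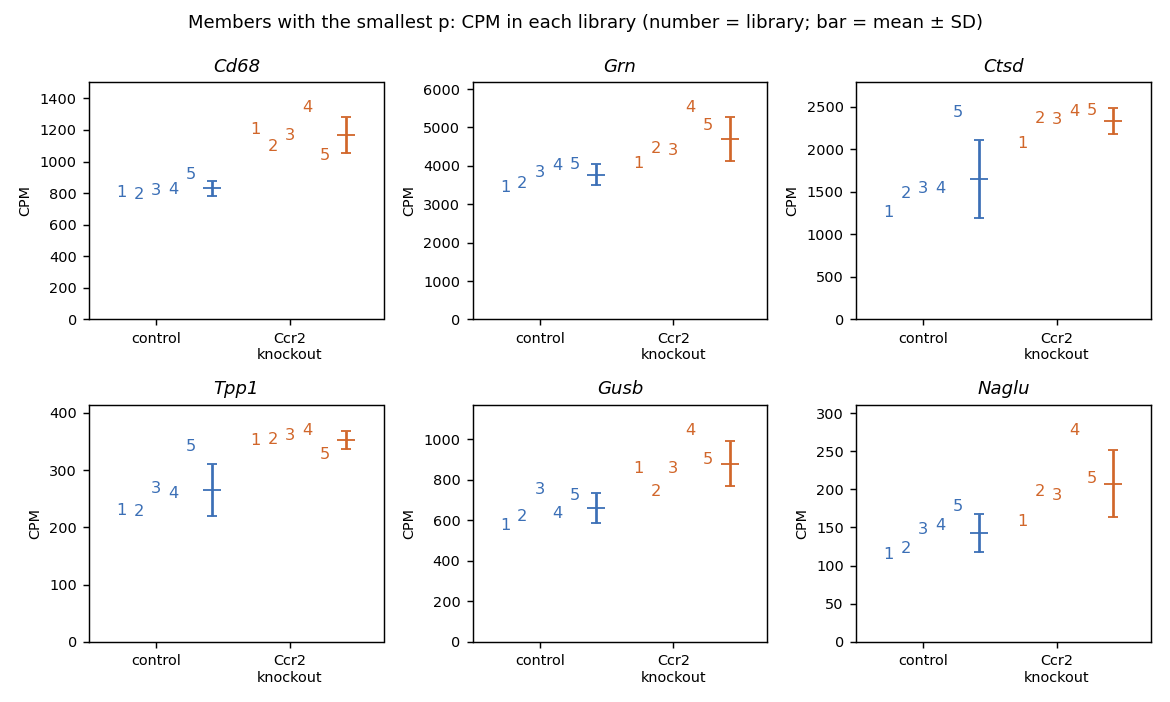
CPM of Cd68, Grn, Ctsd, Tpp1, Gusb and Naglu in each library (numerals are library numbers; bars are mean ± SD, n = 5 per genotype). The genotypes do not overlap for Cd68 and Grn, and control library 5 lies among the knockout libraries for Ctsd and Tpp1.

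The glycosidases that trim sugars from glycolipids and glycosaminoglycans leaned upward, with 0 of 6 past the threshold by edgeR, 3 of 6 at an unadjusted p under 0.05, 1 by DESeq2 (Gusb) and 2 by weighted limma-voom (Glb1 and Naglu). Gusb, the beta-glucuronidase gene, was at 576, 617, 751, 633 and 723 CPM in controls and at 854, 743, 857, 1045 and 901 CPM in knockout libraries. Control library 3 exceeded knockout library 2 alone, and the other libraries were separated. The log2 fold change was 0.41 ± 0.11 (SE, edgeR adjusted p = 0.106). Naglu removes N-acetylglucosamine from heparan sulfate. It had the largest positive log2 fold change of the 42, at 0.54 ± 0.16 (SE, edgeR adjusted p = 0.140). Its control libraries stood at 115, 123, 147, 153 and 177 CPM and its knockout libraries at 158, 198, 192, 278 and 214 CPM. Knockout library 1, at 158 CPM, was below control library 5. The beta-galactosidase gene Glb1 went from 90.8 ± 13.2 to 119 ± 15.9 CPM (n = 5 each, log2 fold change 0.39, edgeR adjusted p = 0.156). Hexa, which acts on ganglioside GM2, had the highest CPM of this group, 974 ± 67.7 and 1131 ± 146 (n = 5 each, log2 fold change 0.22, edgeR adjusted p = 0.355). The alpha-galactosidase gene Gla and the sialidase gene Neu1 had values of -0.20 and -0.08.

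Among the proteases the log2 fold change was positive for 7 of 11 and negative for 4. By edgeR 0 of 11 passed, with 2 of 11 at an unadjusted p under 0.05. DESeq2 called 1, Tpp1, and weighted limma-voom called Ctsd and Tpp1. Ctsd, the main aspartic protease of the lysosome, was at 1258, 1479, 1533 and 1536 CPM in control libraries 1 to 4 and at 2438 CPM in control library 5. The knockout libraries stood at 2073, 2361, 2349, 2440.3 and 2450.5 CPM. All 5 knockout libraries were above control libraries 1 to 4, while control library 5 was inside the knockout range. The log2 fold change was 0.50 ± 0.16 (SE, edgeR adjusted p = 0.164). Without control library 5 it was 0.70 and passed (edgeR adjusted p = 0.00977). Tpp1, a peptidase that removes tripeptides, showed the same arrangement. Its controls were at 229.9, 228, 268, 259 and 341 CPM, the last being control library 5, and its knockout libraries at 351, 354, 360.4, 369.7 and 327 CPM. Its log2 fold change of 0.41 (edgeR adjusted p = 0.114) became 0.53 without control library 5 (edgeR adjusted p = 0.0243).

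Ctss and Ctsh had the opposite sign, and the knockout libraries were far from alike. Ctss is the cysteine protease that trims the invariant chain of MHC class II in antigen-presenting cells. It was at 6295 to 7051 CPM in control libraries, and at 3626, 7134, 3839, 5452 and 5779.6 CPM in knockout libraries 1 to 5. Knockout libraries 1 and 3 were low, while knockout library 2 was above all controls. The log2 fold change was -0.37 with a 95% interval from -0.76 to 0.01 (edgeR adjusted p = 0.338). Ctsh, an aminopeptidase, was narrowly spread in controls at 1526 to 1597 CPM, and at 741, 1322, 943, 1651 and 1388 CPM in knockout libraries. The 2 lowest were again knockout libraries 1 and 3, and knockout library 4 was above all controls (log2 fold change -0.38, edgeR adjusted p = 0.368). Dendritic cell markers, whose cells also use Ctss, summed to 13.4 to 38.3 CPM in controls and 5.53 to 13.9 CPM in knockout libraries. Knockout libraries 1 and 3 had the lowest and the highest of these knockout sums, and knockout library 4 stood at 6.01 CPM. The part of these markers in the Ctss and Ctsh values was not tested.

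Ctsk and Ctsl were led by control library 5. Ctsk, a collagen-degrading protease best known from osteoclasts, was at 14.6, 7.06, 4.51 and 9.71 CPM in control libraries 1 to 4 and at 116 CPM in control library 5, beside 2.33 to 23.0 CPM in knockout libraries. Its log2 fold change of -1.67 (edgeR adjusted p = 0.410) turned to 0.09 without control library 5. The osteoclast markers summed to 194 CPM in that library and to 83.0 to 108 CPM in the other controls. Of the 194 CPM, 98.5 were of the metalloprotease gene Mmp9, and without Mmp9 the sums were 95.8 CPM and 79.3 to 92.9 CPM. Nfatc1, also of that list, held 84.3 of those 95.8 CPM and stood at 60.6 to 76.1 CPM in the other controls. Dcstamp, at 1.85 CPM against 0.343 to 1.80 CPM, and Oscar, at 0.413 CPM against 0 to 0.116 CPM, were likewise highest in control library 5. Ocstamp and Itgb3 went the other way, at 3.38 and 5.88 CPM in control library 5. They were higher in control libraries 1 (9.02 and 17.3 CPM) and 2 (16.6 and 13.9 CPM). Calcr was at 0 in all libraries. The fibroblast markers, which are of another cell type that makes Ctsk, summed to 2177 CPM in control library 5, 644 to 1844 CPM in the other controls, and up to 3435 CPM in knockout library 3, which had the highest knockout Ctsk. Their part in the Ctsk values was not tested. Ctsl was at 1567 CPM in control library 5 and at 685 to 1068 CPM in all other libraries. Its log2 fold change of -0.18 turned to 0.05 without that library.

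The remaining proteases had positive log2 fold changes from 0.08 to 0.24. Ctsb, the endopeptidase with the highest CPM of the 42, was at 8321 ± 615 CPM in controls and 9620.3 ± 1029.9 CPM in knockout libraries (n = 5 each, log2 fold change 0.21, edgeR adjusted p = 0.341). Ctsa, whose protein stabilises Glb1 and Neu1, stood at 0.24, the carboxypeptidase gene Ctsz at 0.22, the asparaginyl endopeptidase gene Lgmn at 0.19 and the dipeptidyl peptidase gene Ctsc at 0.08.

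**Figure D3:**
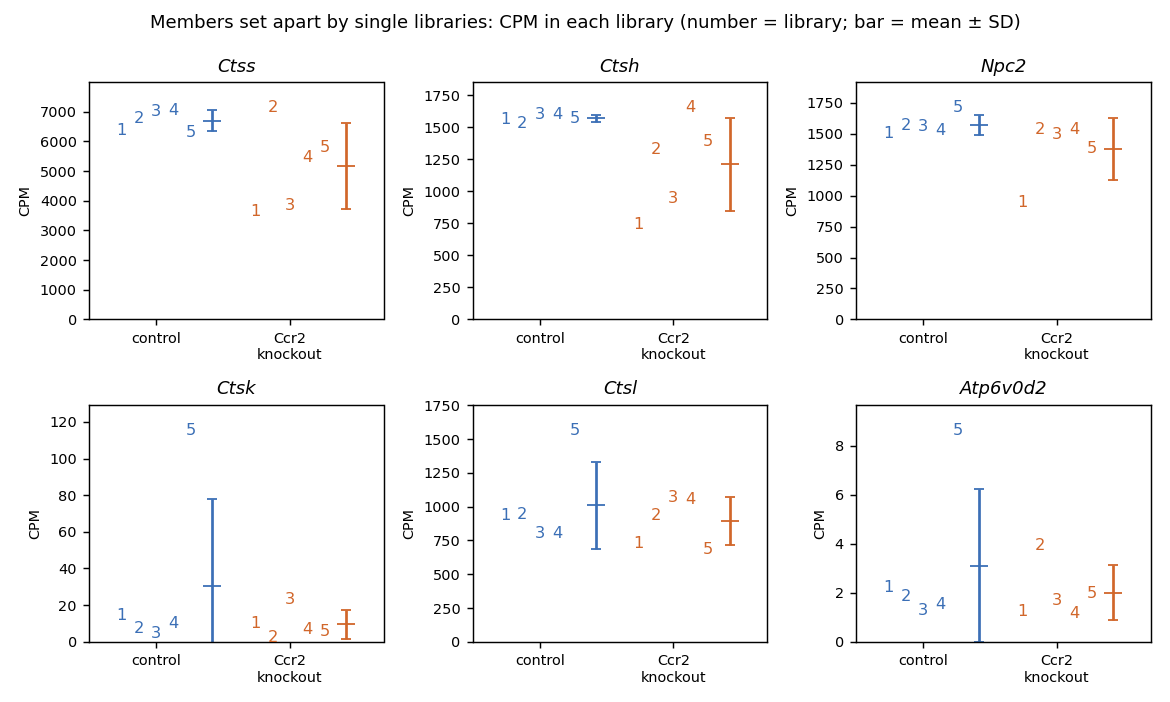
CPM of Ctss, Ctsh, Npc2, Ctsk, Ctsl and Atp6v0d2 in each library (numerals are library numbers; bars are mean ± SD, n = 5 per genotype, ending at 0 where they would go below it). Knockout libraries 1 and 3 are low for Ctss and Ctsh, and control library 5 is high for Ctsk, Ctsl and Atp6v0d2.

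Of the 7 genes for lipid hydrolases and their activators, 0 passed by edgeR, 2 had an unadjusted p under 0.05, 0 passed by DESeq2 and 1, Grn, by weighted limma-voom. Grn encodes progranulin, which is delivered to lysosomes and cut there into granulins. It was at 3428, 3535, 3818, 4016 and 4043 CPM in controls and at 4068, 4464, 4407, 5515 and 5042 CPM in knockout libraries. The groups did not overlap, although knockout library 1 was just above control library 5, and the log2 fold change was 0.32 (edgeR adjusted p = 0.167). The acid sphingomyelinase gene Smpd1 was at 27.1 to 42.2 CPM in controls and at 34.0 to 50.9 CPM in knockout libraries, with knockout library 1 lowest (log2 fold change 0.42, edgeR adjusted p = 0.210). Psap, the precursor of 4 saposins that present sphingolipids to their enzymes, was the most abundant of this group at 8264 ± 247 CPM in controls and 7981 ± 1724 CPM in knockout libraries (n = 5 each, log2 fold change -0.05). Its knockout libraries ran from 5929 CPM in library 1 to 10391 CPM in library 4, on both sides of the control range of 7940.0 to 8594. Gm2a, the activator that lifts ganglioside GM2 out of membranes, was lowest in the same library, at 309 CPM against 469 to 670.2 CPM in all others (log2 fold change -0.25, edgeR adjusted p = 0.496). The acid lipase gene Lipa did not follow genotype, as control libraries 1 and 2 stood at 191 and 173 CPM, knockout libraries 1 and 3 at 219 and 224 CPM, and the other 6 libraries at 331 to 409.8 CPM. The log2 fold changes of Lipa, Ppt1 and Asah1 were 0.23, 0.09 and -0.06.

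Of the V-ATPase subunits 0 of 6 passed by edgeR, DESeq2 or weighted limma-voom, with 1 of 6 at an unadjusted p under 0.05. That gene was Atp6v1a, the catalytic subunit of V1, at 194 to 243 CPM in controls and at 373, 289, 232, 226 and 248 CPM in knockout libraries. Knockout library 1 was highest there, and knockout libraries 3 and 4 lay inside the control range (log2 fold change 0.34, edgeR adjusted p = 0.293). Atp6v0d1, the widely expressed d subunit of V0, had a log2 fold change of 0.16 (edgeR adjusted p = 0.521). Atp6ap1, an accessory subunit, had the highest CPM of the pump genes, 466 ± 60.8 and 486 ± 58.2 (n = 5 each, log2 fold change 0.06). Atp6v0c, the proton-carrying ring subunit, and Atp6v1h, a regulatory subunit of V1, stood at 0.09 and 0.05, with 95% intervals from -0.20 to 0.37 and from -0.15 to 0.25. The other d isoform, Atp6v0d2, known from osteoclasts and some macrophages, was at 1.14 CPM per kilobase in control libraries beside 128 for Atp6v0d1. It reached 8.65 CPM in control library 5 and 1.15 to 3.95 CPM in all others, and its log2 fold change of -0.63 turned to 0.23 without that library.

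The 3 transcription factor genes did not pass, with 0 of 3 by edgeR, DESeq2 or weighted limma-voom and 0 of 3 at an unadjusted p under 0.05. Tfe3 was the most abundant per kilobase of exon, at 12.7 CPM per kilobase in control, beside 7.75 for Tfeb and 3.17 for Mitf. Its CPM went from 118 ± 10.2 to 134 ± 16.9 (n = 5 each, log2 fold change 0.18, 95% interval from -0.04 to 0.41). Tfeb was at 36.9 to 48.1 CPM in controls and at 28.3, 39.9, 30.4, 54.9 and 53.5 CPM in knockout libraries. The knockout libraries therefore lay on both sides of the controls, libraries 1 and 3 below and 4 and 5 above (log2 fold change -0.09, 95% interval from -0.50 to 0.33). Mitf, which also drives the melanocyte programme, was at 19.6 ± 6.25 and 19.2 ± 3.81 CPM (n = 5 each, log2 fold change -0.03). Of 8 melanoma markers 5, Mlana and Tyr among them, were too low to test, and Pmel and Sox10 did not pass, Sox10 at 27.4 ± 15.8 and 24.9 ± 8.93 CPM (n = 5 each). Trpm1, a channel gene of melanocytes, rose at a low level, from 0.170 to 0.478 CPM in controls to 0.679 to 1.56 CPM in knockouts (log2 fold change 1.96, edgeR adjusted p = 0.0270). The part of these markers in the Mitf values was not tested.

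**Figure D4:**
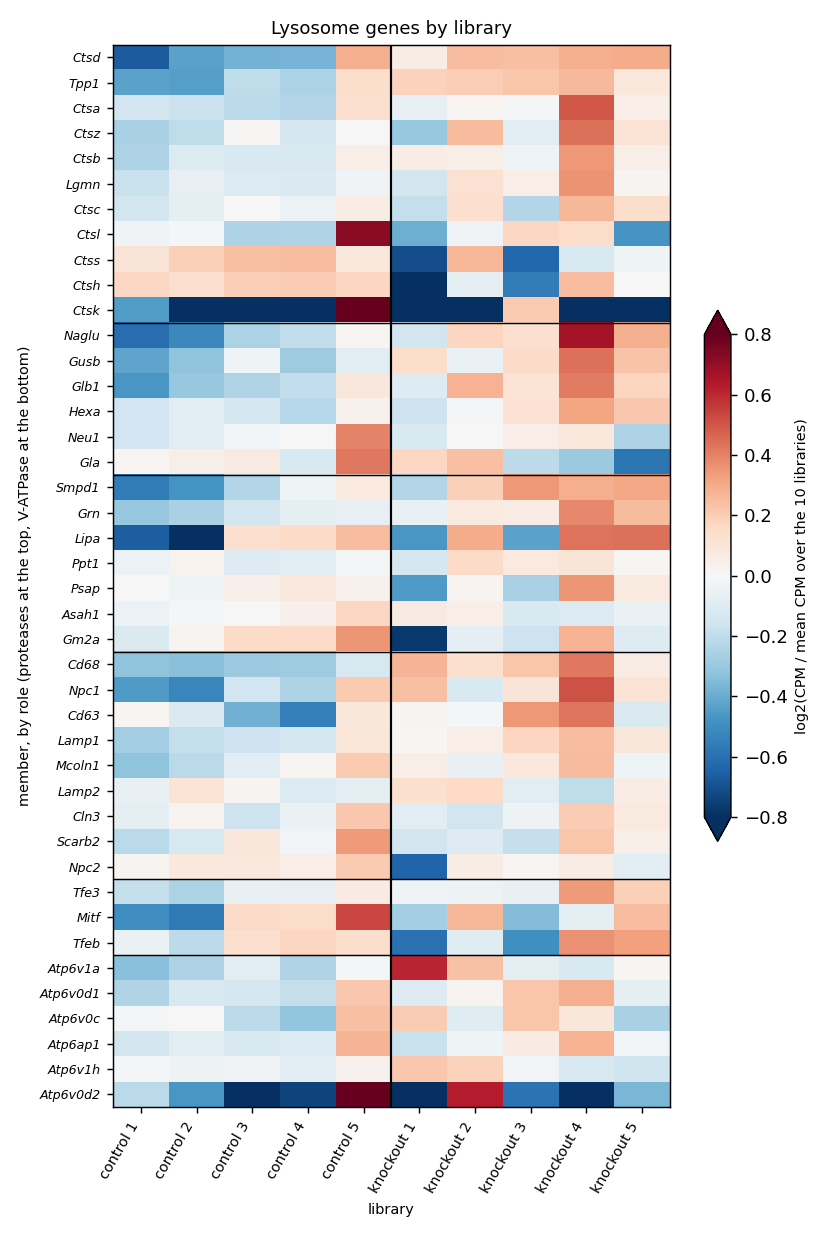
Level of each lysosome gene in each library, as log2 of CPM over the mean CPM of the 10 libraries (colour, cut at 0.8 in both directions; rows by role, columns by library). Control library 5 and knockout library 4 are mostly above the mean, and control library 1 is mostly below.

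The median member stood below its 10-library mean in control libraries 1 to 4, at -0.18, -0.13, -0.10 and -0.11 on the log2 scale, and above it in control library 5, at 0.13. In knockout libraries 1 to 5 the medians were -0.11, 0.05, 0.03, 0.27 and 0.05. Knockout library 1 thus sat with control libraries 1 to 4, and control library 5 with the knockouts. Control library 5 also had the highest control sums of the monocyte and resident macrophage markers, at 6129 and 6357 CPM. In that library Fn1 held 4458 of the 6129 CPM, and Stab1 and F13a1 held 3725 and 1655 of the 6357 CPM. Between the genotypes Fn1, Stab1 and F13a1 did not pass (edgeR adjusted p = 0.869, 0.123 and 0.380). The part of either marker list in the member levels was not tested. Leaving out control library 5 raised the number of positive members from 28 to 34 and the number past the threshold from 1 to 3. These were Cd68, Ctsd and Tpp1. Over all genes 135 of 14546 tested rose and 64 fell in that fit, beside 125 and 78 of 14374 with all libraries. With control library 1, 2, 3 or 4 left out instead, Cd68 missed the threshold.

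The other genes of the pathway were taken from 7 lists with 145 genes, of which 139 were tested, and 4 rose and 0 fell (edgeR). DESeq2 called 7 higher and 2 lower, weighted limma-voom 8 and 0, and limma-voom without the weights 5 and 0, beside the shares of all genes given above for the first 2. At an unadjusted p under 0.05 there were 26, or 18.7%, of which 20 were higher, near the 15.3% of all genes. Positive log2 fold changes were held by 92 of 139, or 66.2%, with a median of 0.08. Of all genes 49.5% were positive, with a median of -0.00335. The largest rise was that of Hgsnat (ENSMUSG00000037260), the lysosomal membrane enzyme that acetylates heparan sulfate using acetyl-CoA of the cytosol. It stood at 284, 195, 237, 214 and 314 CPM in control libraries and at 991, 603, 1039, 1009 and 467 CPM in knockout libraries. The lowest knockout library was well above the highest control. The log2 fold change was 1.72 ± 0.24 (SE, edgeR adjusted p = 0.00735), and it passed with any 1 library left out (edgeR adjusted p from 0.00294 to 0.0311). With the close control pairs summed it missed the threshold (edgeR adjusted p = 0.102).

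A cathepsin and a protease inhibitor also rose. Ctsf, a cysteine cathepsin, was at 26.1 to 53.6 CPM in controls and 56.5 to 118 CPM in knockout libraries (log2 fold change 1.22, edgeR adjusted p = 0.0292). Serpinb6a, an intracellular serpin placed in the list of inhibitors, was at 127 to 241 CPM in controls and 255 to 404 CPM in knockout libraries (log2 fold change 0.997, edgeR adjusted p = 0.0365). For both the groups did not overlap. Of the 139 other lysosome genes tested, 7 (5.04%) had groups that did not overlap, 6 of them higher. That is near the 4.7% of all genes. Ctsf did not pass when control library 2, 3 or 4, or else knockout 1, 4 or 5, was left out (edgeR adjusted p from 0.0596 to 0.0775). Serpinb6a missed the threshold with any 1 library left out other than control 5 or knockout 2 (edgeR adjusted p from 0.0530 to 0.0978).

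**Figure D5:**
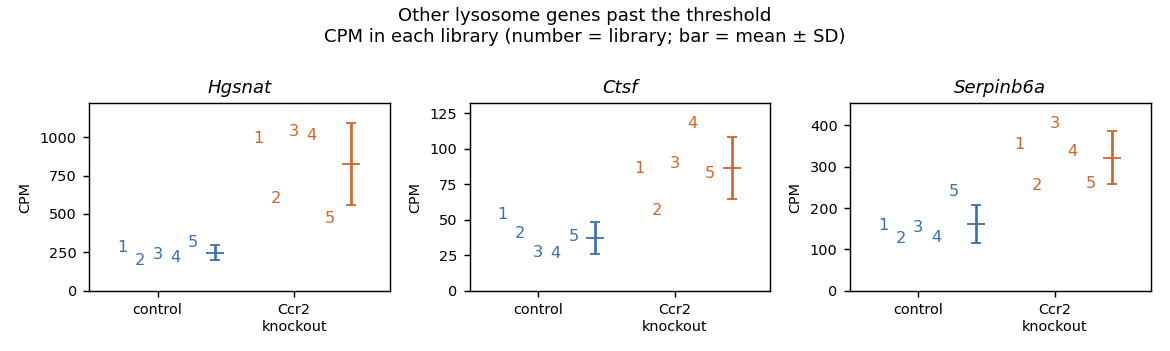
CPM of Hgsnat, Ctsf and Serpinb6a, genes outside the 42 that rose, in each library (numerals are library numbers; bars are mean ± SD, n = 5 per genotype). All 5 knockout libraries lie above all 5 controls for each gene.

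By list, 2 of 36 other hydrolases and 1 of 29 other membrane proteins rose. DESeq2 called 2 hydrolases lower that edgeR did not, Acp5, the tartrate-resistant acid phosphatase, and Ctse, cathepsin E. Their log2 fold changes were -0.92 and -0.99 (edgeR adjusted p = 0.139 and 0.127). Abcd4, a lysosomal cobalamin transporter, had a log2 fold change of 0.70 with groups that did not overlap (edgeR adjusted p = 0.0532). Of 14 other V-ATPase subunits tested 0 passed by edgeR, with 2 at an unadjusted p under 0.05, and DESeq2 and weighted limma-voom called Atp6v0a1. The a subunit genes had opposite signs, Atp6v0a1 at 0.76 and Atp6v0a2 at -0.35 (edgeR adjusted p = 0.0800 and 0.198). Of 18 genes of lysosomal mTORC1 and Tfeb control 0 passed by edgeR or DESeq2, with 1 at an unadjusted p under 0.05, the Rag GTPase gene Rragc at 0.38 (edgeR adjusted p = 0.121), which weighted limma-voom called. Lamtor1, which anchors that complex, was at 0.28. Of 20 sorting genes and 17 autophagy genes 0 passed by edgeR, DESeq2 or weighted limma-voom, with 5 and 1 at an unadjusted p under 0.05. For the V-ATPase, mTORC1 and Tfeb control, sorting and autophagy lists these shares were 14.3%, 5.56%, 25% and 5.88%, beside 15.3% of all genes. The adaptor gene Gga2, which DESeq2 called when run on the genes edgeR tested, stood at 0.63, Vps33a at 0.50, Uvrag at -0.25 and Optn at 0.34. In the list of protease inhibitors 1 of 5 tested rose, Serpinb6a, and the cystatin gene Cst7 was at -0.44 (edgeR adjusted p = 0.501).

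The enzymes that act in turn on heparan sulfate did not move as 1 block. This set was assembled after the values of Hgsnat and Naglu had been seen. Beside Hgsnat at 1.72, Naglu was at 0.54 and Gusb at 0.41. The sulfatase genes Ids and Sgsh and the iduronidase gene Idua stood at 0.08, 0.08 and 0.04, with edgeR adjusted p from 0.724 to 0.932.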

How the data were processed

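The authors deposited whole-number read counts per gene for 10 libraries, as STAR writes them, aligned to GRCm39 per the submitters' processing notes. The sources used here do not give the STAR version or annotation. Libraries were poly(A)-enriched and directional, per the labels' protocols. The reverse-strand column was used, as 96.2% to 96.5% of stranded counts fell in it. Rows that name no gene (12.6% to 15.4% of reads) were left out. A combined table with unnamed columns was not used. Symbols matched 52083 of 55359 identifiers, and exon lengths came from GENCODE M21 on GRCm38, so levels per kilobase are approximate.

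The test was that of edgeR 4.0.16, run in R 4.3.3 (filterByExpr with minimum count 10, TMM, quasi-likelihood F-test, Benjamini-Hochberg adjustment, threshold 0.05). CPM used TMM-scaled library sizes. The standard error is the log2 fold change over the square root of F. Alternatives used DESeq2 1.42.0, with its own filter on low counts, and limma-voom with sample quality weights (limma 3.58.1). Counts were also simulated with independent libraries and the same dispersion (spread between libraries) of 0.05 for every gene. In them edgeR recovered 20.4% of genes changed 1.5-fold, 87.6% changed 2-fold and 97.3% changed 4-fold. The changed genes were drawn from all genes past the filter. Real genes differ in spread and some libraries were closely alike, so these are not rates for the members. Members passing the threshold are given in full, with the 3 smallest p and the highest CPM in each role, and the 2 smallest p in each other list. Values of other genes were chosen after they were seen. The members and lists were chosen with earlier results of these data known. Some items that the rule names are not reported here, though counts include them.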

Additional observations from a re-analysis of the deposited data

Results flagged for a closer look

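In 14 of 112 groups of 5 libraries checked (56 genes, each genotype), the highest or lowest library stood far from the other 4. The nominal rate of this check is about 5% for independent libraries. The share over all genes in these libraries was not computed, and whether the count is particular to lysosome genes was not tested. Control library 5 was the high value in 10 of the 14. It stood at 1854 CPM for Ctsa (other controls 1443 to 1529), 2438 for Ctsd (1258 to 1536), 116 for Ctsk (4.51 to 14.6), 1567 for Ctsl (802 to 939.7) and 178 for Neu1 (121 to 135). It was also high for Cd68 at 916 CPM (794 to 822), Atp6v0d2 at 8.65 (1.29 to 2.20), Atp6v0d1 at 282 (206 to 223), Atp6ap1 at 574 (430.2 to 448) and Serpinb6a at 241 (127 to 158). Knockout library 4 was high for Ctsa at 2393 CPM (other knockouts 1619 to 1763) and Ctsb at 11415 (8770.1 to 9339). Knockout library 1 was low for Ctsd at 2073 CPM (2349 to 2450.5) and Npc2 at 946 (1385 to 1538). The genes share libraries, so these are not independent.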

How the results depend on the processing

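The number of members past the threshold, 1 of 42, was 3 with DESeq2, 6 with limma-voom with sample quality weights, and 0 with no filter on low counts, with the close control pairs summed, with knockout libraries 4 and 5 also summed, and without both of those (an alternative chosen after seeing the data). It ran from 0 to 3 without any 1 library, and 0 members fell in any of these fits. Other lysosome genes that rose, 4 as reported, were 7, 8, 3, 0, 0 and 1 under the same 6 settings and 1 to 5 without any 1 library, and those that fell were 2 with DESeq2 and 0 to 1 without any 1 library. Over all genes, 203 became 799 with DESeq2, 446 with weighted limma-voom, 29 and 8 with the libraries summed, 50 without both knockout libraries 4 and 5, and 62 to 267 without any 1 library. DESeq2 tested without edgeR's filter on low counts. On the genes edgeR tested it called 820 in all, 5 members higher, and 10 other lysosome genes higher and 2 lower. Without the sample weights limma-voom called 206, 1 and 5, so its larger counts came with the weights. Both fits were chosen after seeing the data. RLE size factors, library size alone, 1 CPM in 5 libraries and unstranded counts kept all these counts within 1.5 times. The count of positive members ran from 24 to 34 over all alternatives.

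With the title number as a replicate block, 55 of all genes, 0 members and 0 other lysosome genes passed, and the edgeR adjusted p of Cd68 was 0.147. The correlations of same-numbered deviations were 0.344, 0.0802, -0.529, 0.180 and -0.224. Only control library 1 correlated best with the knockout library of its own number. Control libraries 2 to 5 did so with knockout libraries 1, 5, 5 and 3. With so few libraries, these values cannot settle whether same-numbered libraries share more than a number.

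Members that changed sign included several near 0 and also Ctsk, Atp6v0d2 and Lipa, at -1.67, -0.63 and 0.23 in the main fit. Without any 1 library the log2 fold change ran from -0.0263 to 0.0857 for Cln3, -0.14 to 0.14 for Mitf, -0.20 to 0.0252 for Tfeb, -0.15 to 0.0414 for Psap, -0.11 to 0.0501 for Scarb2, -2.31 to 0.0905 for Ctsk, -0.25 to 0.0503 for Ctsl, -0.13 to 0.0346 for Neu1 and -1.02 to 0.23 for Atp6v0d2. With weighted limma-voom it was 0.0177 for Scarb2, 0.0161 for Tfeb, 0.14 for Mitf and 0.0244 for Atp6v0d2, and Mitf was 0.00476 with the block and 0.00319 with limma-voom without weights. Cln3 was -0.0218 with the control pairs summed, -0.0614 with knockouts 4 and 5 also summed and -0.0702 without both. Atp6ap1 was -0.0214 and -0.00547 in the last 2 settings, and Ctsc and Lipa were -0.0359 and -0.0263 without both. The cause of these changes was not tested. In the simulated counts, where every gene had the same dispersion, 20.4% of genes changed 1.5-fold were recovered. That is not a rate for the members.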
